A study of Mus musculus with 6 samples.

Results

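Osteocytes form from osteoblasts that become buried in the matrix they have secreted. Cells at the start of that change extend dendrites and carry surface proteins such as podoplanin, whereas mature osteocytes secrete sclerostin, which restrains bone formation, and proteins that control phosphate and mineral. Described here are 10 genes used as markers of these stages. Pdpn and Cd44 stand for early osteocytes. Dmp1, Phex, Mepe, Fgf23, Sost, Mef2c, Irx5 and Fbln7 were grouped by a fixed list with later stages. These 8 encode matrix proteins, a peptidase, a hormone, a WNT antagonist and transcription factors. The stage at which each gene first appears was not tested. The genes were taken by symbol from a deposited table of 39174 genes, and all 10 had a row there.

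The cells sequenced were MLO-Y4, a line from mouse long bone that is widely used as an osteocyte model and is known, as background, to come from mice with an immortalizing antigen driven by the osteocalcin promoter. All cultures were grown below confluence on collagen-coated glass. The 3 flow cultures received 2 h of oscillating fluid flow at 10 dyn/cm² in parallel-plate chambers and were harvested after 2 h in fresh medium, and the 3 non-flow control cultures were sham-treated in parallel. Values are FPKM, which are read counts scaled to transcript length and library depth, so that levels can be compared between genes. The smallest steps of the values gave a depth of 11020000, 5750000 and 19230000 reads in flow libraries 1 to 3, against 17910000, 18080000 and 19010000 reads in non-flow controls 1 to 3. Flow libraries 1 and 2 also stood apart from the other 4 in the GC content of their transcripts, and the fold changes of the 5 osteocyte genes tested are given with and without them. Of 21223 protein-coding genes, 49.3% had a mean of at least 1 FPKM, 5.12% had at least 100 FPKM and 28.6% were listed at 0 in all 6 libraries.

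Early markers were abundant and the defining markers of mature osteocytes were largely missing. Of the 10 genes, 5 lay above the FPKM of 3 reads in every library, namely Pdpn, Cd44, Irx5, Phex and Fbln7. Sost, Mepe and Fgf23 were listed at 0 in all 6 libraries, and Dmp1 and Mef2c had isolated reads. The early list (Pdpn, Cd44 and Mmp14) had 3 of 3 members with a mean of at least 1 FPKM, and the mature list (Sost, Dmp1, Phex, Mepe and Fgf23) had 1 of 5. Of the 8 genes here linked to later stages 3 reached that mean, Irx5, Phex and Fbln7, at 9.01, 5.59 and 1.33 FPKM. By these markers the line was early osteocyte-like, with Irx5, Phex and Fbln7 of the later genes present. However, 10 of 14 osteoblast and 5 of 6 fibroblast and mesenchymal markers, described below, also reached that mean. The lists therefore do not separate an early osteocyte from an osteoblast or another mesenchymal cell.

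Podoplanin, encoded by Pdpn (ENSMUSG00000028583, chromosome 4 at 143267431 to 143299564 of mm10, minus strand), is a mucin-type membrane protein needed for the growth of osteocyte dendrites. It had 391, 406 and 417 FPKM in flow libraries 1 to 3, against 412, 357 and 420.4 FPKM in non-flow controls 1 to 3. The groups overlapped throughout, and the gene ranked at place 217 among protein-coding genes. Cd44 (ENSMUSG00000005087, chromosome 2 at 102811141 to 102901665, minus strand) encodes the main cell-surface receptor for hyaluronan. It had 207, 209.8 and 178 FPKM in flow libraries 1 to 3, against 221, 171 and 160.4 FPKM in non-flow controls 1 to 3, and ranked at place 518. Pdpn was the higher of the pair in each of the 6 libraries, by 1.86 to 2.62 times. The annotation gives Cd44 9 transcripts, and the table holds 1 value per gene, so its splice forms were not separated.

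Irx5 (ENSMUSG00000031737, chromosome 8 at 92357796 to 92361456, plus strand), an Iroquois homeobox factor, came next. Its level was 5.31, 7.56 and 10.8 FPKM in flow libraries 1 to 3, against 9.67, 9.58 and 11.1 FPKM in non-flow controls 1 to 3. Phex (ENSMUSG00000057457, chromosome X at 157162075 to 157415312, minus strand) encodes a membrane endopeptidase whose loss causes phosphate wasting with raised FGF23. It had 7.46, 6.74 and 4.06 FPKM in flow libraries 1 to 3, against 4.80, 5.66 and 4.84 FPKM in non-flow controls 1 to 3. The ranges of Irx5 and Phex overlapped, with Irx5 the higher in 5 libraries and Phex the higher in flow library 1. Fbln7 (ENSMUSG00000027386, chromosome 2 at 128862981 to 128897034, plus strand) encodes fibulin 7, a secreted adhesion protein of the matrix. It lay below every Phex value, at 1.41, 1.09 and 1.34 FPKM in flow libraries 1 to 3, against 1.36, 1.12 and 1.67 FPKM in non-flow controls 1 to 3. In descending order the levels were therefore Pdpn, Cd44, Irx5 and Phex together, then Fbln7.

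**Figure D1:**
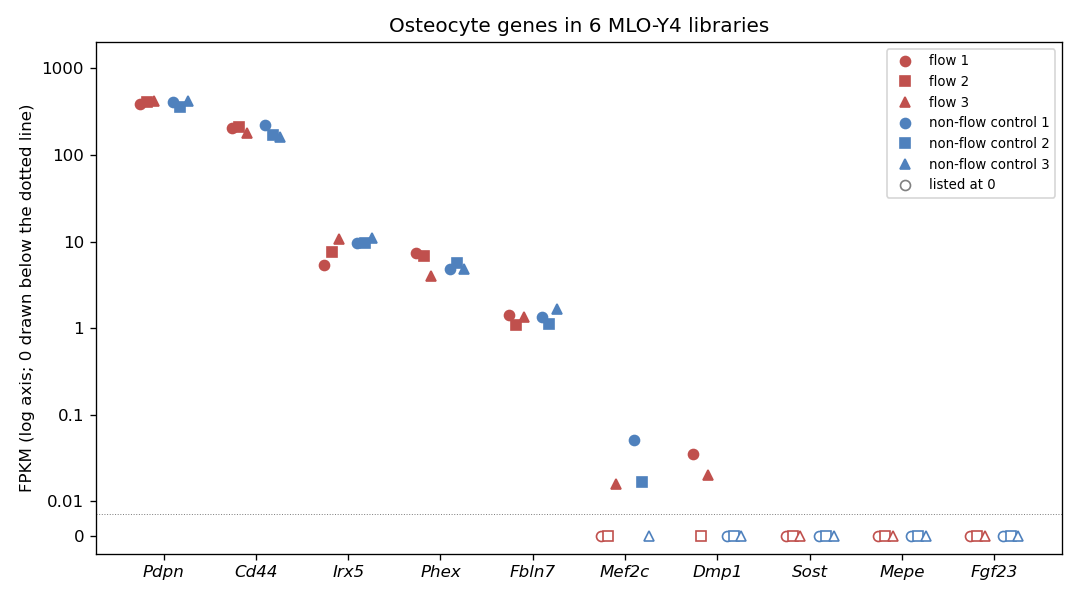
FPKM of the 10 osteocyte genes on a log axis, 1 point per library, with flow libraries left of non-flow controls for each gene and open points for values listed at 0. Pdpn and Cd44 lie between 160.4 and 420.4 FPKM, while Sost, Mepe and Fgf23 are at 0 in all 6 libraries.

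Sclerostin, the WNT antagonist encoded by Sost (ENSMUSG00000001494, chromosome 11 at 101962458 to 101967015, minus strand), was listed at 0 in the 3 flow libraries and the 3 non-flow controls. For a transcript of its length, 2066 nt, 3 reads would equal 0.0836 FPKM in the deepest library and 0.279 FPKM in the shallowest. The phosphate hormone Fgf23 (ENSMUSG00000000182, chromosome 6 at 127072902 to 127081408, plus strand) and the matrix phosphoglycoprotein Mepe (ENSMUSG00000053863, chromosome 5 at 104325329 to 104338611, plus strand) were likewise at 0 throughout, with 3-read limits of 0.0966 to 0.323 FPKM and 0.105 to 0.352 FPKM. Single reads below such limits could still be listed, as for Dmp1 next, and none was listed for these 3 genes. A level too low to give a read at this depth would not have been seen.

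Dentin matrix protein 1, encoded by Dmp1 (ENSMUSG00000029307, chromosome 5 at 104202617 to 104214102, plus strand), binds mineral in the matrix around osteocytes. It had 0.0354 and 0.0203 FPKM in flow libraries 1 and 3, and was at 0 in flow library 2 and in non-flow controls 1 to 3. Multiplied by depth, both flow values were equal (ratio 1.00), and with the transcript length of 2764 nt each came to 1.0 read. Mef2c (ENSMUSG00000005583, chromosome 13 at 83504034 to 83667079, plus strand), the factor that drives the distal Sost enhancer in bone, had 0.0158 FPKM in flow library 3 and 0 in the other flow libraries. It had 0.0510 and 0.0168 FPKM in non-flow controls 1 and 2, and 0 in non-flow control 3. Times depth, the value of non-flow control 1 was 3.0 times that of flow library 3, and that of non-flow control 2 was 1.00 times it. Such steps would fit 3 reads against 1 and 1, whereas the longest coding transcript, at 6277 nt, would give 5.55 reads in non-flow control 1, above the 3-read floor, and 1.85 reads in both others. With 31 transcripts annotated, the read numbers of Mef2c are uncertain. These few reads do not separate flow from non-flow cells for either gene.

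Promoter sequences were looked at for features that could accompany the contrast between abundant and silent genes. RefSeq (GRCm38.p6) starts were found for 9 of the 10 genes, and Irx5 was not matched. The 250 bases before the start are shown for the pair with the highest levels, Pdpn (chr4:143299565-143299814, minus strand) and Cd44 (chr2:102901666-102901915, minus strand), and for a pair at 0, Sost (chr11:101967016-101967265, minus strand) and Mepe (chr5:104325079-104325328, plus strand). They read 5′ to 3′ along the gene, and capitals mark CpG dinucleotides, the main sites of DNA methylation.
Pdpn: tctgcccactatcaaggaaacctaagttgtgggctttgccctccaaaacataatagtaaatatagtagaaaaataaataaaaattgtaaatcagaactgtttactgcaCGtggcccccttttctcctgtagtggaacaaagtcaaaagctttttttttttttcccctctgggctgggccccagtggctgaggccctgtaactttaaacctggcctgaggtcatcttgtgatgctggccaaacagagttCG
Cd44: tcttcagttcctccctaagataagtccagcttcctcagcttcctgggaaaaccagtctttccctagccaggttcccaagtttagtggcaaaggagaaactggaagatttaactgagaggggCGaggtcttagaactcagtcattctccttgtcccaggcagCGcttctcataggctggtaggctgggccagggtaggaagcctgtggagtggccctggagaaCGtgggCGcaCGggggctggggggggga
Sost: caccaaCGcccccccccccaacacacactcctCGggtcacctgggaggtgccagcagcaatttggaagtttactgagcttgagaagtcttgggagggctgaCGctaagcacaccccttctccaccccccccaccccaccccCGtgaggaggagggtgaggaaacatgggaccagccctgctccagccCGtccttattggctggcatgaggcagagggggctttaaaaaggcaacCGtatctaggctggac
Mepe: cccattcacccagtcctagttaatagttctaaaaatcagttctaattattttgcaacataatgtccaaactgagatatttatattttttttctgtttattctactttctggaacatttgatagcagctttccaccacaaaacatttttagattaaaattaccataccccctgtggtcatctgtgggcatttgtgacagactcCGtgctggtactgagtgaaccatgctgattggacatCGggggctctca
These stretches hold 2 CpGs in Pdpn and 5 in Cd44, against 6 in Sost and 2 in Mepe, so the CpG count did not follow the level. Over the full window of 300 bases, which runs 50 bases past the start, Pdpn and Sost had 7 CpGs each, the median of all 32851 promoters. Fbln7 had the most among the genes, 22, which exceeds the count of 76.9% of promoters, at a mean level of 1.33 FPKM. The letters TATAAA, searched on both strands, occurred in the window of Mepe and at 2 of the 3 starts of Mef2c, and in 13.6% of all promoters. The MEF2 consensus, searched on both strands, was in 0 of the 12 windows of these genes and in 3.19% of all promoters. CpG methylation itself was not measured.

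Dmp1 and Mepe belong to the SIBLING family, secreted acidic phosphoproteins of bone and dentin whose genes lie side by side. Their neighbour Spp1, which encodes osteopontin, had 7851, 8360 and 6445 FPKM in flow libraries 1 to 3, against 6868, 7054 and 6944 FPKM in non-flow controls 1 to 3. The groups overlapped, at a log2 fold change of 0.11 with SE 0.12 (limma, adjusted p = 0.705). Ibsp, the bone sialoprotein gene between Dmp1 and Mepe, had 0.0485 FPKM in flow library 1 and 0 in the other 5 libraries, and Dspp, the dentin sialophosphoprotein gene, was at 0 in all 6. Spp1 starts 96507 bp beyond the end of Mepe. On the outer sides, Sparcl1 had 5.42 to 8.55 FPKM in flow libraries, against 5.95 to 8.22 FPKM in non-flow controls, and Pkd2 had 15.8 to 20.9 FPKM in flow libraries, against 16.8 to 17.9 FPKM in non-flow controls. Within the family 1 of 5 members was thus abundant, and the other 4 had no value above 0.0485 FPKM.

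**Figure D2:**
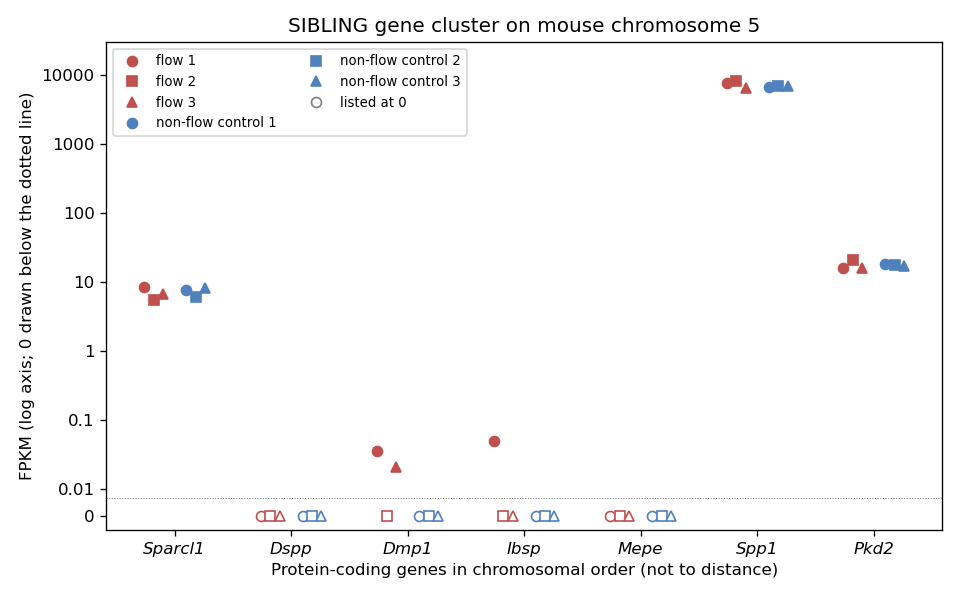
FPKM on a log axis of the protein-coding genes of the SIBLING cluster on chromosome 5 with 1 neighbour on each side, in chromosomal order but not drawn to distance, with 1 point per library and open points at 0. Spp1 lies at 6445 to 8360 FPKM, while Dspp and Mepe, in the same stretch, are at 0.

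Families of the other genes were compared to see whether a relative was present. Of 4 MEF2 factors, 2 had a mean of at least 1 FPKM: Mef2a averaged 29.7 ± 2.17 FPKM in flow and 27.5 ± 1.73 FPKM in non-flow cells (SD, n = 3 each), and Mef2d averaged 40.0 ± 14.6 FPKM in flow and 66.9 ± 12.9 FPKM in non-flow cells. Mef2d did not pass the test (log2 fold change -0.77, SE 0.28, limma adjusted p = 0.559). Of 6 Iroquois genes 3 reached that mean, and Irx3, which lies on chromosome 8 with Irx5, stood highest. It had 17.2, 22.0 and 34.1 FPKM in flow libraries 1 to 3, against 28.3, 27.9 and 32.6 FPKM in non-flow controls 1 to 3. The ratio of Irx3 to Irx5 stayed between 2.90 and 3.25 in all 6 libraries, so both were low in the same libraries. Irx2 averaged 9.48 ± 3.56 FPKM in flow and 11.6 ± 2.91 FPKM in non-flow cells, Irx1 and Irx4 were at 0 throughout, and Irx6, the other Iroquois gene of that stretch, had at most 0.0210 FPKM.

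Among 8 fibulins and hemicentins, Fbln7 was the lowest of the 6 that reached 1 FPKM. Efemp1 averaged 687 ± 159 FPKM in flow and 578 ± 24.3 FPKM in non-flow cells, and Efemp2, a fibulin of elastic fibres, had 167 to 260.0 FPKM in flow and 254 to 264 FPKM in non-flow libraries. Among 7 peptidases of the PHEX family, Ece1, an endothelin-converting enzyme, averaged 118 ± 31.1 FPKM in flow and 142 ± 16.5 FPKM in non-flow cells. Ece2 had 38.6 to 47.4 FPKM in flow and 38.7 to 50.9 FPKM in non-flow libraries, and Phex was the third that reached 1 FPKM.

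**Figure D3:**
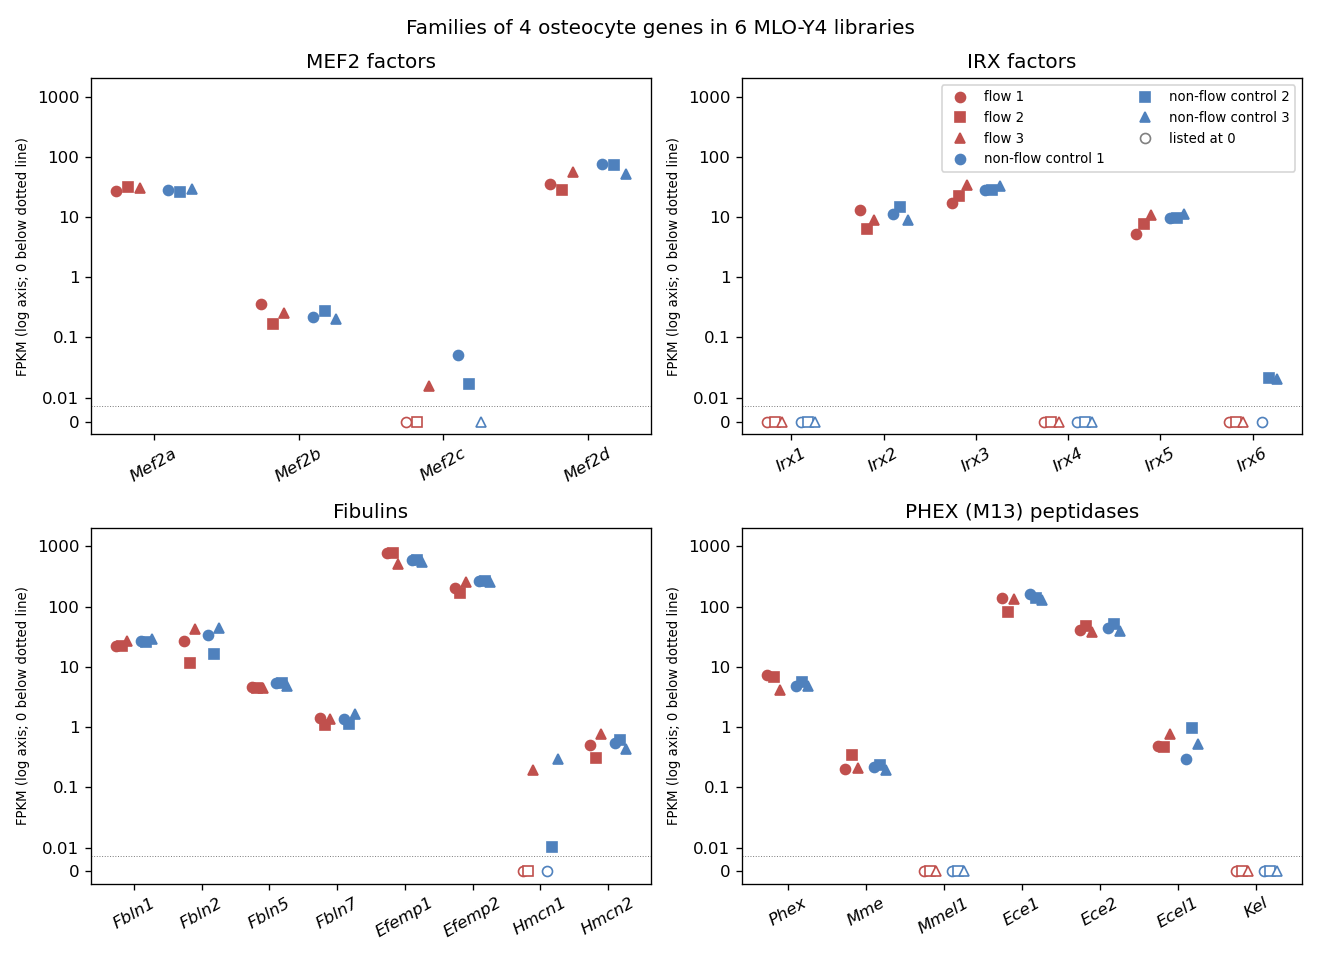
FPKM on a log axis of the MEF2, Iroquois, fibulin and PHEX peptidase families, 1 point per library, flow left of non-flow control, with open points at 0. Mef2a and Mef2d are present where Mef2c is at or near 0, and Fbln7 and Phex sit far below the highest members of their families, Efemp1 and Ece1.

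Genes that act with these markers were taken from fixed lists. In the list of early osteocyte and dendrite formation, 10 of 10 members reached a mean of 1 FPKM. Besides Pdpn and Cd44 they included Capg, an actin-capping protein, with 375, 345 and 422 FPKM in flow libraries 1 to 3, against 443, 491 and 453 FPKM in non-flow controls 1 to 3. Every flow value lay below every control value, as in 8% of all genes tested, and the difference did not pass the test (log2 fold change -0.28, limma adjusted p = 0.559). Moesin, encoded by Msn, which ties CD44 and podoplanin to actin, had 186 to 234 FPKM in flow and 190.2 to 206 FPKM in non-flow libraries. Of the enzymes that make hyaluronan, Has1 had 19.1 to 20.8 FPKM in flow and 13.5 to 22.7 FPKM in non-flow libraries. Has2 had 2.13 to 4.06 FPKM in flow and 1.38 to 3.94 FPKM in non-flow libraries.

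Of 19 genes of phosphate and mineral regulation, 12 reached 1 FPKM. Fgfr1, a receptor of FGF23, had 52.1, 54.4 and 80.2 FPKM in flow libraries 1 to 3, against 82.5, 63.8 and 80.8 FPKM in non-flow controls 1 to 3. The phosphate transporter gene Slc20a1 had 45.0 to 60.7 FPKM in flow and 49.3 to 71.8 FPKM in non-flow libraries. Galnt3, whose product glycosylates FGF23 and shields it from cleavage, averaged 15.2 ± 1.28 FPKM in flow and 11.9 ± 1.06 FPKM in non-flow cells, and Furin, a protease that can cleave FGF23, averaged 15.5 ± 3.45 FPKM in flow and 23.2 ± 2.05 FPKM in non-flow cells. For Galnt3 all flow values lay above the controls, as in 7.12% of all genes tested, and for Furin all lay below. Neither passed the test over all genes (limma, adjusted p = 0.559 for each). The co-receptor Kl and the vitamin D hydroxylase Cyp24a1 were at 0 in all 6 libraries. Alkaline phosphatase, encoded by Alpl, had 1.05 to 2.62 FPKM in flow and 2.15 to 7.31 FPKM in non-flow libraries (log2 fold change -0.77, limma adjusted p = 0.560). Phospho1, another phosphatase gene of the list, averaged 2.75 ± 1.46 FPKM in flow and 6.24 ± 2.35 FPKM in non-flow cells. Its log2 fold change of -0.96 was the largest of the list in size and did not pass the test (limma, adjusted p = 0.559). The groups overlapped for Alpl and Phospho1.

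Among 16 genes of Sost regulation and sclerostin receptors, 11 were tested after Sost, Sostdc1, Mef2c, Sp7 and Lrp4 fell under the filter. Sik3, a kinase that holds class IIa histone deacetylases in the cytoplasm, had 47.9 to 67.0 FPKM in flow and 62.8 to 63.2 FPKM in non-flow libraries, and Hdac5, a class IIa deacetylase that represses MEF2, averaged 37.2 ± 7.60 FPKM in flow and 51.4 ± 5.85 FPKM in non-flow cells (limma, adjusted p = 0.559). The sclerostin receptor Lrp6 had 7.43 to 10.0 FPKM in flow and 6.32 to 9.78 FPKM in non-flow libraries. Of 8 other osteocyte-associated genes 4 reached 1 FPKM, led by Gja1, the connexin 43 gene, while Dkk1, Wnt1 and Ptprz1 were at 0 in all 6 libraries. Ostn, which encodes the secreted peptide osteocrin, had 14.6, 26.4 and 9.56 FPKM in flow libraries 1 to 3, against 9.04, 17.3 and 8.43 FPKM in non-flow controls 1 to 3.

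The labelled cell type was also set against markers of other cells. Of 6 fibroblast and mesenchymal markers 5 reached 1 FPKM, all but Thy1. Of 14 osteoblast markers 10 reached 1 FPKM, and those that did not were Sp7, Dlx5, Ibsp and Postn. The list's summed level was 7229 to 9042 FPKM in flow and 7702 to 7895 FPKM in non-flow libraries, most of it Spp1. Sp7, the osteoblast factor osterix, stayed at 0.384 FPKM or less in flow and 0.388 FPKM or less in non-flow libraries. Endothelial and epithelial lists had 0 of 4 members each at 1 FPKM, chondrocyte and muscle lists 1 of 4 each (Sox9 and Acta2), the adipocyte list 2 of 4 (Pparg and Lpl), and the leukocyte list 2 of the 4 in the table (Cd14 and Cd68). Ctsk, a protease known from osteoclasts, had 165 to 206 FPKM in flow and 194 to 216 FPKM in non-flow libraries, with the other osteoclast genes Acp5, Calcr and Ocstamp at 0.151 FPKM or less. In whole cultures, fewer cells of a type and less RNA per cell cannot be told apart.

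The comparison of flow with non-flow cells asked whether these genes respond within hours of flow. The test was limma on log2(FPKM + 1) of genes whose mean reached 1 FPKM, a scale on which changes of low genes look smaller than they are, with Benjamini-Hochberg adjustment over all 11957 genes. Of the 10 osteocyte genes 5 passed that filter and 0 were called, and 0 of the 5 had an unadjusted p under 0.05. Over all genes 0.0167% were called and 8.52% had an unadjusted p under 0.05. In 0 of the 5 were the groups separate, against 15.1% of all genes. The median log2 fold change of the 5 was 0.034, with 3 above 0, against -0.011 over all genes. The lists around them held 0 called genes, which says little where 0.0167% of all genes were called. The lists were early osteocyte and dendrite formation (0 of 10), phosphate and mineral regulation (0 of 12), Sost regulation (0 of 11) and osteoblast markers (0 of 10). In that order, 1, 3, 3 and 2 genes had an unadjusted p (limma) under 0.05. All flow values lay above the controls in 0, 1, 0 and 0 genes, against 7.12% of all genes. They lay below in 1, 1, 1 and 3 genes, against 8% of all genes. Fold changes were negative in 4, 8, 8 and 9 genes, against 6185 of all 11957. The median log2 fold changes of the 4 lists were 0.049, -0.14, -0.22 and -0.26 in that order. Once GC trends, given next to the single genes, were taken out, they were 0.0086, -0.17, -0.13 and -0.11. Left with flow library 3 as the only flow sample, the medians were -0.050, 0.010, -0.11 and -0.17.

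Pdpn averaged 405 ± 12.8 FPKM in flow and 396 ± 34.1 FPKM in non-flow cells (SD, n = 3 each). Its log2 fold change was 0.034 with SE 0.094 (95% interval -0.19 to 0.26, limma adjusted p = 0.894). Cd44 averaged 198 ± 17.7 FPKM in flow and 184 ± 32.5 FPKM in non-flow cells, with a log2 fold change of 0.11 (95% interval -0.24 to 0.47, limma adjusted p = 0.752). For these abundant markers the intervals thus end below a log2 change of 0.5 in either direction. Phex averaged 6.09 ± 1.79 FPKM in flow and 5.10 ± 0.490 FPKM in non-flow cells, at 0.19 on the log2 scale (95% interval -0.34 to 0.71, limma adjusted p = 0.728). Irx5 averaged 7.91 ± 2.78 FPKM in flow and 10.1 ± 0.847 FPKM in non-flow cells, at -0.36 (95% interval -0.93 to 0.20, limma adjusted p = 0.592). Fbln7 averaged 1.28 ± 0.167 FPKM in flow and 1.38 ± 0.274 FPKM in non-flow cells, at -0.061 (95% interval -0.55 to 0.42, limma adjusted p = 0.912). The intervals of Phex, Irx5 and Fbln7 are wide and leave room for changes in either direction.

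Flow libraries 1 and 2, the shallowest, stood apart from the other 4 in GC content, the share of G and C bases in a transcript. In flow libraries 1, 2 and 3, the fifth of protein-coding genes richest in GC (at least 55.9%) had median deviations from their own means of -0.19, -0.23 and 0.10 on the log2 scale. The 3 non-flow controls had 0.10 to 0.11. For the fifth poorest in GC (at most 44.2%) the medians were 0.18, 0.23 and -0.11 in flow libraries 1, 2 and 3, and -0.11 to -0.08 in the non-flow controls. Irx5 and Phex, the genes at the extremes of GC, moved with this trend. Irx5, at 65.4% GC, deviated by -0.63, -0.19 and 0.28 in flow libraries 1 to 3, and by 0.11 to 0.31 in the non-flow controls. Irx3, at 62.5% GC, deviated by -0.59, -0.25 and 0.36 in flow libraries 1 to 3, and by 0.08 to 0.30 in the non-flow controls. Phex, at 39.6% GC, went the other way, with 0.38, 0.25 and -0.36 in flow libraries 1 to 3, and -0.16 to 0.04 in the non-flow controls. Pdpn, at 48.8% GC, stayed within -0.03 to 0.06 in flow libraries and -0.16 to 0.07 in non-flow controls. Cd44, at 44.5% GC, deviated by 0.12, 0.14 and -0.095 in flow libraries 1 to 3, and by -0.24 to 0.22 in the non-flow controls.

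**Figure D4:**
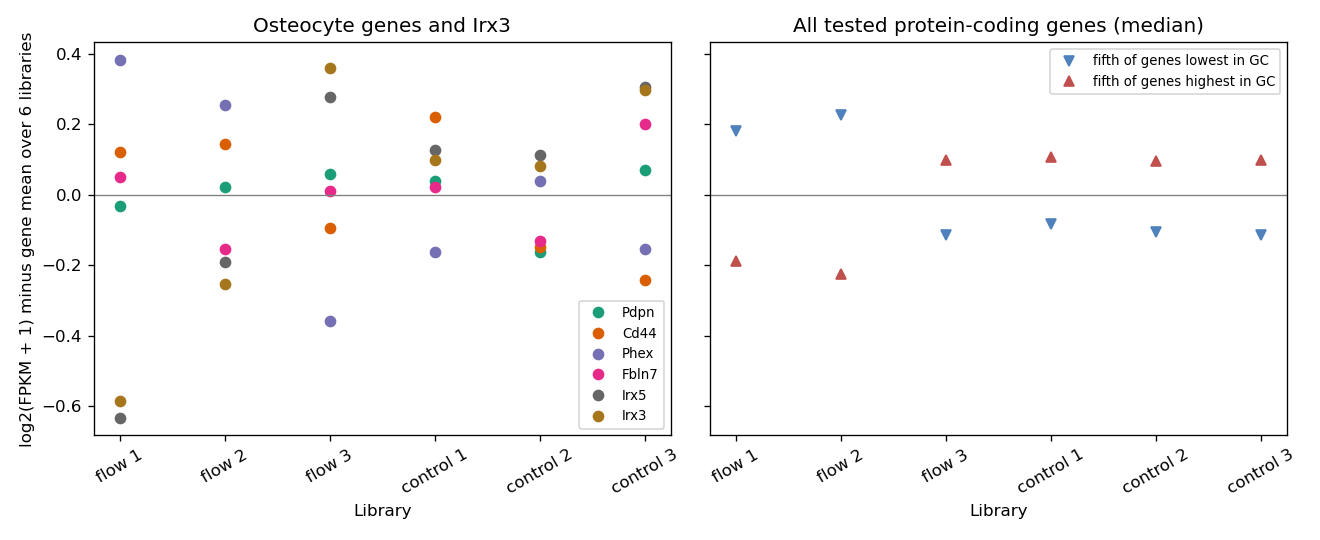
Deviation of log2(FPKM + 1) from each gene's mean over the 6 libraries, for 5 osteocyte genes and Irx3 (left) and as medians over the protein-coding genes poorest and richest in GC (right), by library. Irx5 and Irx3 are low and Phex is high in flow libraries 1 and 2, where GC-rich genes are low and GC-poor genes high.

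With the GC trend of each library removed, the log2 fold change of Irx5 was -0.064 (95% interval -0.43 to 0.31, limma adjusted p = 0.959), that of Phex -0.048 (95% interval -0.38 to 0.29, limma adjusted p = 0.967) and that of Cd44 -0.012. Pdpn was at 0.0095 and Fbln7 at -0.045. Irx5 then deviated by -0.34, 0.14 and 0.11 in flow libraries 1 to 3, and by -0.04 to 0.16 in the non-flow controls. With flow library 3 alone against the 3 non-flow controls, and its spread assumed to be like theirs, Irx5 was at 0.094 and Phex at -0.27, so the signs of both turned. In that fit Pdpn was at 0.076, Cd44 at -0.038 and Fbln7 at -0.019. Without flow library 1 alone, Irx5 was at -0.14 and Phex at 0.041. Without flow library 3, Irx5 was at -0.59 (limma adjusted p = 0.120) and Phex at 0.41 (limma adjusted p = 0.136). None of the 5 genes was called in any of these fits. In Furin, Capg and Hdac5, named above as lower in flow on average, GC was 58.3%, 57.1% and 58.8%, and in Galnt3 it was 44.1%. Each had separate groups in the 3-against-3 values, and genes singled out for this can shrink in other fits for that reason alone. The GC trend marked flow libraries 1 and 2 and no control, so its removal can also take out an effect of flow. Furin was at -0.57 on the log2 scale, against -0.37 without the GC trend and -0.33 with flow library 3 alone. Capg was at -0.28, against -0.11 and -0.13 in those fits, and Hdac5 at -0.47, against -0.26 and -0.22. Galnt3 was at 0.33, against 0.19 in both. Mef2d, at -0.77, was at -0.63 without the GC trend and -0.23 with flow library 3 alone, and Fgfr1, at -0.30, was at -0.15 and 0.091, so its sign turned. All 6 values were smaller in size in both fits, and none of the 6 genes was called without the GC trend. This did not hold for every gene refitted. Irx2, at -0.30, was at -0.12 without the GC trend and -0.32 with flow library 3 alone. Spp1, at 0.11, was at -0.044 and -0.11, and Irx3, at -0.32, was at -0.052 and 0.20.

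**Figure D5:**
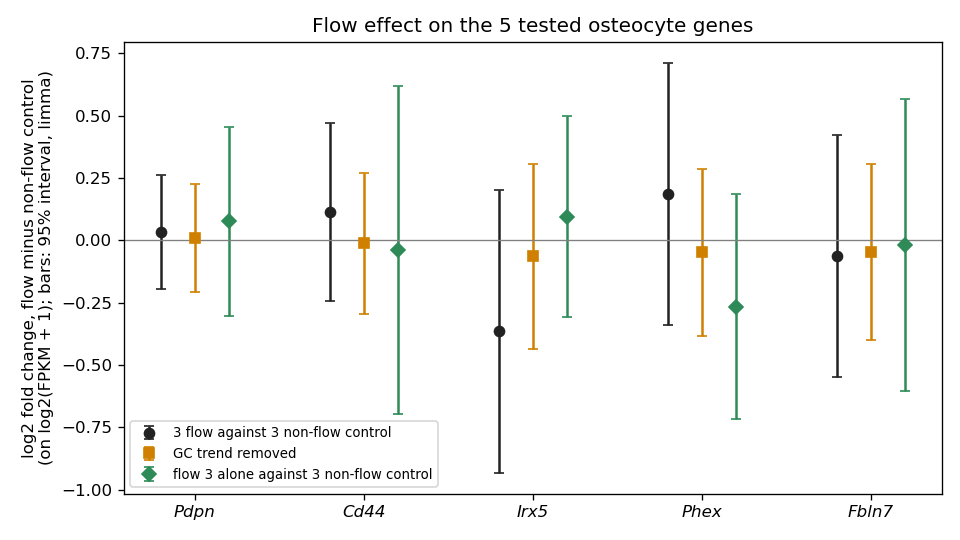
Log2 fold change of the 5 tested osteocyte genes, flow minus non-flow control, with 95% intervals from limma, for 3 against 3 libraries, after removal of the GC trend and for flow library 3 alone. Every interval includes 0, and the values of Irx5 and Phex, -0.36 and 0.19 in the 3-against-3 fit, are -0.064 and -0.048 without the GC trend.

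For each osteocyte gene with a mean of at least 5 FPKM, the genes whose log2 values followed it best over the 6 libraries were found among genes with at least 10 FPKM. They were Ncln (r = 0.995) and Upf3a (r = 0.994) for Irx5, Prpf38a (r = 0.988) and Txndc9 (r = 0.984) for Phex, Supt4a (r = 0.97) and Ttll4 (r = 0.97) for Cd44, and Tceal8 (r = 0.958) and Gopc (r = 0.957) for Pdpn. These coefficients are the highest among 7385 or 7386 genes at 6 points that share library and depth, and serve as a description. The partners of Irx5 had 60.9% and 52.9% GC, and those of Phex had 44.8% and 40.0%. Those of Cd44 had 50.6% and 47.1%, and those of Pdpn had 43.6% and 43.8%.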

How the data were processed

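The 6 MLO-Y4 libraries, 3 from flow and 3 from sham-treated cultures, were collected in triplicate on different days and read as 50-cycle single ends, per the labels' protocols. Tools named in the submitters' processing notes are TopHat2 2.0.9 and Cufflinks 2.2.1 (with CASAVA 1.8.2), on mm10. The annotation and any use of strand were not given in the sources used here. None of the osteocyte genes shares exon bases with another gene in GENCODE M21.

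The authors deposited FPKM in 2 tables. The one with a library title in all 6 column names was the basis. The other has 2 flow columns that match no title, used only as flow, and 22 repeated identifiers, reduced to the row of higher mean. Depth came from low values (0.01 to 1 FPKM) of genes that have a single transcript over 800 nt: multiplied by the length minus 200 nt, they gathered at the value of 1 read, and 74.4% to 81.0% lay within 0.02 of whole reads. Floors of 3 reads use the longest coding transcript and cover counting error only. Loci are those of the authors' table, 1-based.

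The fit used limma 3.58.1 (R 4.3.3) with a variance trend and no covariate, a pseudocount of 1, two-sided tests and a call at an adjusted p under 0.05. With 3 cultures a group, p-values measure the spread between those cultures. The fit and the depth estimate were tested on simulated data. For the fit these held independent noise per gene, without the GC trend or any day effect, so they do not cover either. GC content is that of the longest coding transcript, and GC trends were removed per library by loess. The 10 osteocyte genes are always named. Of each list the up to 4 of highest mean, those that passed and family members could be named, and further examples were chosen after their values were seen. The genes and lists were chosen with earlier results of these data known.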

Additional observations from a re-analysis of the deposited data

How the results depend on the processing

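No alternative called any of the 5 tested osteocyte genes. Over 14 alternatives the adjusted p (limma) ranged from 0.120 to 0.959 for Irx5, 0.136 to 0.967 for Phex, 0.478 to 0.990 for Cd44, 0.851 to 0.990 for Pdpn and 0.833 to 1.00 for Fbln7. Their signs were not stable. The other deposited table was shallower: its steps gave 690000 reads in non-flow control 1 and 3610000 to 4720000 in its other libraries. In it the log2 fold change was -0.060 for Phex, -0.028 for Pdpn and 0.048 for Fbln7. With the GC trend removed it was -0.048 for Phex and -0.012 for Cd44. With flow library 3 alone it was -0.27 for Phex, -0.038 for Cd44 and 0.094 for Irx5. Quantile normalization put Fbln7 at 0.033. Omission of 1 library gave -0.039 to 0.078 for Pdpn, -0.14 to 0.024 for Fbln7, 0.021 (without non-flow control 3) to 0.25 (without non-flow control 1) for Cd44, -0.59 (without flow library 3) to -0.14 (without flow library 1) for Irx5, and 0.041 (without flow library 1) to 0.41 (without flow library 3) for Phex. The fits with flow library 3 alone, with the GC correction and of protein-coding genes were chosen after the data were examined.

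Of all genes, limma called 2. It called 4 with a pseudocount of 0.1, 4 without a filter, 3 in the other table, 1 with adjacent titles as pairs (a replicate block), 9 to 24 without 1 library, 75 with flow library 3 alone, and 0 among protein-coding genes without GC correction (998 with an unadjusted p under 0.05) and 0 with it (710). The causes were not tested. Adjacent titles deviated together only weakly (r = 0.02 to 0.06), each flow library correlating best with its adjacent control, so the pairing is not established. A correlation over all genes can miss sharing in single genes, and the main fit had no term for collection day. Of 100 levels compared, 4 moved by more than 1 SD, all in the shallower other table. Omission of 1 of 3 values cannot move a mean that far, and levels at 0 in both tables cannot move. Those comparisons therefore say nothing on how stable the levels are. The number of osteocyte genes above the floor in every library was 5, and also 5 with 10 reads or 1 FPKM, and 4 in the other table.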
